A study of Mus musculus with 6 samples.

Results

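Levels of 10 genes of gut and gastric differentiation were followed in sorted cells of a mouse lung tumour. The genes were taken by name (Cdh17, Tff1, Tff2, Tff3, Vil1, Lgals4, Cdx2, Muc1, Anxa10 and Gkn1), with every probe set assigned to one of them alone. That gave 13 of the 45037 probe sets tested, and 10 of 18193 genes. The choice was made with the values of these arrays known, levels and differences between the fractions included, so their differences are given as descriptions with standard errors and no p of their own. Counts of calls among them, set beside those of the whole array, are descriptions too.

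The tumours grew under the skin from 344SQ, a lung adenocarcinoma line that spreads widely in syngeneic hosts and came from a mouse with the alleles KrasLA1/+ and p53R172HdelG/+. Flow cytometry divided their cells by CD133, and the high and the low fraction were each measured on 3 arrays. Line, alleles and host background are common to both. CD133 is the surface protein encoded by Prom1. The labels give no age of the animals and no link between arrays and animals, so the spread behind each error and p may be technical. The study's title concerns cells prone to metastasis, and the comparison asks what sets the CD133 high cells apart.

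Lung and stomach lining both arise from the foregut, and the intestinal lining from the endoderm behind it. Most of the genes described here mark cells of the stomach and intestine, while Muc1 is a mucin of glandular epithelia in general. Trefoil factors and gastrokine are secreted with mucus, and cadherin-17 and galectin-4 serve adhesion of gut epithelium. Villin bundles actin in microvilli, and Cdx2 is the transcription factor that sets intestinal identity. Mouse lung adenocarcinomas that lose the lung factor Nkx2-1 are known to take on stomach genes, many of them targets of Hnf4a.

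Values are log2 probe set values as deposited, and a difference is CD133 high minus CD133 low, so that 1 unit is a doubling. As a guide to the level of silent genes, 80 probe sets of olfactory and vomeronasal receptors, which a tumour is not thought to use, had a median of 5.02 and a 95th percentile of 7.22. The means of 5 of the 13 probe sets lay above 7.22, as did those of 41.6% of all probe sets: 1 each of Cdh17, Tff1, Lgals4, Muc1 and Anxa10. The other 8, which hold every probe set of Tff2, Tff3, Vil1, Cdx2 and Gkn1, did not. Muc1 lay above it through CD133 high replicates 2 and 3. Brightness also depends on the probes, so the genes are not ranked by level.

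The CD133 high arrays were not alike. Across all probe sets CD133 high replicate 1 had a Spearman rho of 0.967 to 0.976 with the CD133 low arrays but of 0.93 and 0.932 with CD133 high replicates 2 and 3. Bacterial hybridisation controls, added before hybridisation, averaged 11.29 and 11.04 on replicates 2 and 3 of the CD133 high fraction, 10.38 on its replicate 1, and 10.19 to 10.51 in the CD133 low fraction. The 3' Gapdh control was brighter than the mid-transcript one by 0.44 and 0.46 on replicates 2 and 3, and by −0.13 to −0.07 on the other arrays. Its excess over the 5' Gapdh control was only 0.02 on each of replicates 2 and 3, and −0.23 to −0.20 on the other arrays. Prom1 itself stood at 5.49, 5.92 and 6.06 in the CD133 low and at 6.80, 6.63 and 6.40 in the CD133 high fraction. The fractions did not overlap, but all of these values lay within the receptors' range. The difference of Prom1 was 0.79 (SE 0.26) and did not pass the adjusted threshold (adjusted p = 0.297 from limma).

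Cdh17, the intestinal cadherin, was higher in the CD133 high fraction by a similar amount on all 3 arrays. Its log2 values were 10.75, 10.10 and 10.07 in the CD133 low and 11.45, 11.61 and 11.43 in the CD133 high fraction. The fractions did not overlap, and CD133 high replicate 1, which resembled the CD133 low arrays across the genome, lay with replicates 2 and 3 here. The means were 11.50 ± 0.0952 and 10.31 ± 0.383 (SD, n = 3 arrays each). The difference of 1.19 (SE 0.21 from limma), or 2.28-fold, was 1.21 without CD133 high replicate 1.

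The trefoil factors, which lie side by side in the genome in the order Tff3, Tff2, Tff1, did not share a pattern. Tff1, the trefoil peptide of the stomach surface, was bright on every array. It stood at 11.06, 10.84 and 10.65 in the CD133 low and at 11.17, 12.60 and 12.32 in the CD133 high fraction. The fractions did not overlap, but CD133 high replicate 1 lay 0.32 above the CD133 low mean against 1.75 and 1.47 for replicates 2 and 3. The means were 12.03 ± 0.754 and 10.85 ± 0.208 (SD, n = 3 arrays each), and their difference of 1.18 (SE 0.37), or 2.27-fold, became 1.61 without CD133 high replicate 1 and 0.90 without replicate 2. Most of it thus stood on the arrays with the higher hybridisation controls and the excess of 3' over mid-transcript Gapdh. The part of either was not tested.

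Tff2, the trefoil peptide of gastric mucous neck and gland cells, was in the range of the receptors. It read 3.34, 6.05 and 4.65 in the CD133 low fraction, 3.18 and 2.32 on CD133 high replicates 2 and 3, and was listed at 0 on CD133 high replicate 1. The CD133 high arrays lay below the CD133 low arrays, but with values below 5 set to 5 the difference of −2.84 shrank to −0.35. Tff3, the trefoil peptide of goblet cells, was likewise no brighter than the receptors' upper range, at 6.63, 6.47 and 6.39 against 6.47, 5.63 and 5.96. Here CD133 high replicate 1 lay among the CD133 low arrays and the fractions overlapped (difference −0.48, SE 0.28, −0.70 without CD133 high replicate 1 and −0.28 without replicate 2).

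**Figure D1:**
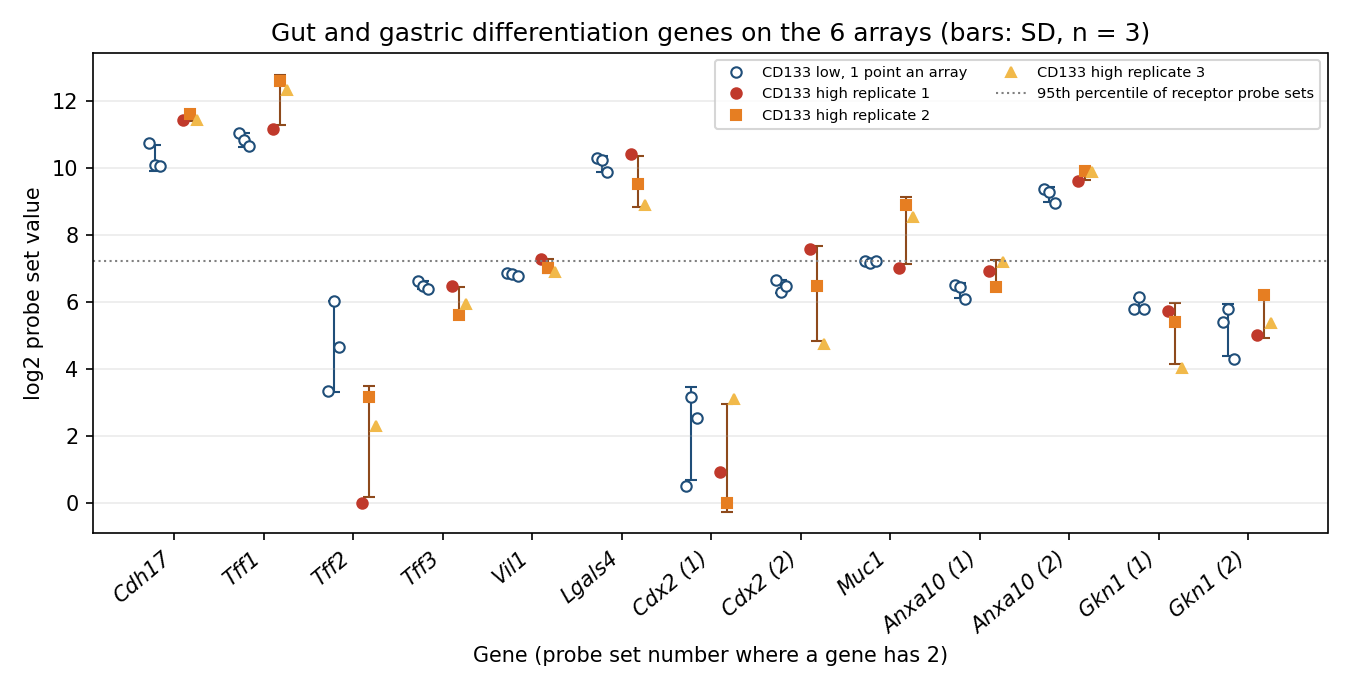
Log2 values of the 13 probe sets on the 6 arrays, with CD133 low arrays as open circles and CD133 high replicates 1, 2 and 3 as filled circles, squares and triangles. Vertical bars are means ± SD over 3 arrays, and the dotted line at 7.22 is the 95th percentile of the receptor probe sets; where a gene has 2 probe sets they are numbered in order of their names. Cdh17, Tff1, Lgals4 and the second Anxa10 probe set lie above the line on every array.

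Anxa10, an annexin of gastric epithelium, was higher in the CD133 high fraction at its brighter probe set. That probe set read 9.38, 9.28 and 8.97 in the CD133 low and 9.61, 9.92 and 9.88 in the CD133 high fraction, with no overlap. The difference was 0.59 (SE 0.17), or 1.51-fold, between means of 9.80 ± 0.168 and 9.21 ± 0.215 (SD, n = 3 arrays each). Its dimmer probe set differed by a similar 0.52 (SE 0.27), but there the fractions overlapped, at 6.50, 6.45 and 6.09 against 6.94, 6.44 and 7.20.

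Muc1, the transmembrane mucin of glandular epithelia, divided the CD133 high arrays. The CD133 low arrays lay within 0.07 of each other, at 7.24, 7.17 and 7.24. CD133 high replicate 1 was lower than all of them at 7.01, and replicates 2 and 3 were at 8.91 and 8.54, above all of them. The difference of 0.94 (SE 0.47) became 1.51 without CD133 high replicate 1, the array that lacked the higher control readings, and 0.56 without replicate 2. Whether those readings bear on Muc1 was not tested.

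Gkn1, gastrokine-1 of the stomach surface mucus, had a pair of dim probe sets that went opposite ways. The first read 5.80, 6.15 and 5.81 in the CD133 low and 5.74, 5.41 and 4.03 in the CD133 high fraction, lower on all 3 but by only 0.18 for CD133 high replicate 1 (difference −0.86, SE 0.47). The second, whose suffix marks probes shared with other transcripts, differed by 0.38 (SE 0.50) with overlapping fractions. The difference of the first was −0.34 without CD133 high replicate 3, and the mean of both probe sets differed by −0.24.

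Lgals4, the galectin of gut epithelium, was bright in both fractions. It stood at 10.30, 10.23 and 9.87 in the CD133 low and at 10.41, 9.53 and 8.89 in the CD133 high fraction. CD133 high replicate 1 had the highest value of the 6 arrays and replicates 2 and 3 the lowest values. The fractions overlapped, and the difference of −0.52 (SE 0.37) was −0.92 without CD133 high replicate 1 and −0.16 without replicate 3.

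Vil1, villin of the brush border, had little spread, at 6.88, 6.84 and 6.78 against 7.29, 7.02 and 6.91. Every CD133 high array lay above every CD133 low array, yet the difference was 0.24 (SE 0.19, 0.13 without CD133 high replicate 1) and CD133 high replicate 1 alone passed 7.22. Cdx2, the intestinal transcription factor, lay on average within the receptors' range at both of its probe sets. Its brighter one read 6.66, 6.29 and 6.48 in the CD133 low and 7.59, 6.47 and 4.76 in the CD133 high fraction. The highest and the lowest of these 6 values were both in the CD133 high fraction, and the difference of −0.20 turned to 0.56 without CD133 high replicate 3. The dimmer one lay at 3.16 or below everywhere and was listed at 0 on CD133 high replicate 2.

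Promoter windows are shown for the genes above the receptor level that have an entry in RefSeq's table (build GRCm38.p6), since Anxa10 and Muc1 were higher and Lgals4 lower on CD133 high replicates 2 and 3. Each runs from 250 bases before to 50 bases after the gene's start, 5′ to 3′ on the gene's strand. They lie at chr8:62123144-62123443 on the minus strand (Anxa10), chr3:89228806-89229105 on the plus strand (Muc1) and chr7:28833544-28833843 on the plus strand (Lgals4). Capitals mark the motif TATAAA, the TATA box that positions the transcription machinery.
Anxa10: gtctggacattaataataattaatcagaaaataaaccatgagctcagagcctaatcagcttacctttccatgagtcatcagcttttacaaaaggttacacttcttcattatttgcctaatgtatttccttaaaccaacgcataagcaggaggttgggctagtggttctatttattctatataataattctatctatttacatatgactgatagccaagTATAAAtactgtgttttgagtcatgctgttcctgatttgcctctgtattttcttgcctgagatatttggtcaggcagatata
Muc1: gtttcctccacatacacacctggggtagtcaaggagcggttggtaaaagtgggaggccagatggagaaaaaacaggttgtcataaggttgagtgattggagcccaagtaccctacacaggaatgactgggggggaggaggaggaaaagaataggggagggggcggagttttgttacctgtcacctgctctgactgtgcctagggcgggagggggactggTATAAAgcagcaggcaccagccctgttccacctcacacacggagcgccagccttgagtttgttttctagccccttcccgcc
Lgals4: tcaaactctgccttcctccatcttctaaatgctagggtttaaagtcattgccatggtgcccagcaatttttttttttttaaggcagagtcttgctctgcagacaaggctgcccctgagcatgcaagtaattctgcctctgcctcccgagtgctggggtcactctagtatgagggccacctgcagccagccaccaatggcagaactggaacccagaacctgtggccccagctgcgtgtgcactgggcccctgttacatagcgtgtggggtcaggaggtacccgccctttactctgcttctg

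Counted from 1 at the 5′ end, TATAAA begins at base 219 of the Anxa10 window and at base 220 of the Muc1 window, and neither strand of the Lgals4 window holds it. Of all 32851 windows of this length 13.6% hold it on either strand. Apart from TATAAA, 3 motifs were searched on both strands: GATAA, the core bound by GATA factors (25.4% of all windows), TTTATNG for Cdx factors (10.9%) and CAAAGTCCA for Hnf4a (0.475%). None of these occurs in the windows above. GATAA is found 2 times in the window of Gkn1, and no motif in those of Vil1 and Cdx2. The TATAAA and GATAA matches do not overlap. The 6 genes with a window are a description of sequence only, and Cdh17, Tff1, Tff2 and Tff3 have no entry.

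Set beside the whole array, the 13 probe sets held 4 whose CD133 high arrays all lay above the CD133 low arrays (Cdh17, Tff1, Vil1 and the brighter Anxa10), where 10.3% of all probe sets did. In 2, of Tff2 and Gkn1, they all lay below, as in 10.5% of all probe sets. By limma with Benjamini-Hochberg adjustment over all probe sets 0 of the 13 passed a threshold of 0.05, where 0.182% of all did, and 4 had an unadjusted p under 0.05, where 15.7% of all did. Without CD133 high replicate 1, 4 were called higher and 1 lower, beside 9.5% and 11.8% of all probe sets. Because the members were chosen with this contrast known, nothing is read from these counts. At their brightest probe sets 5 genes had positive and 5 negative differences, with a median of 0.02 against 0.00 over all genes.

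**Figure D2:**
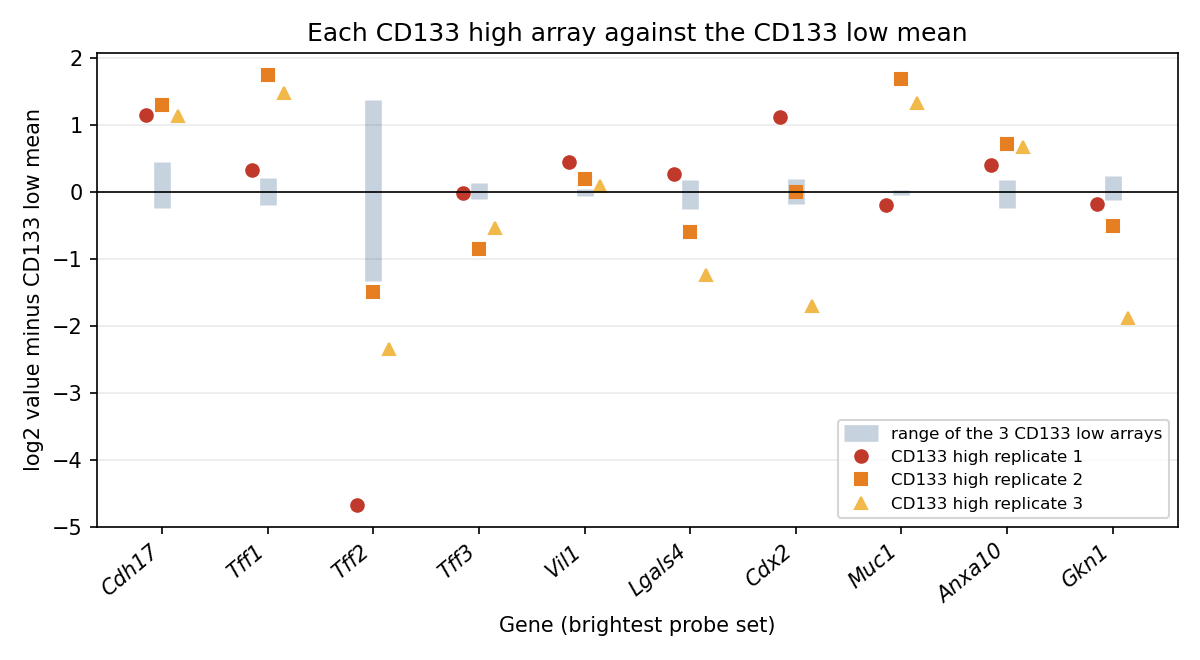
Each CD133 high array minus the CD133 low mean, in log2 units, for the 10 genes at their brightest probe sets. Pale blue bars span the 3 CD133 low arrays. Cdh17 sits at 1.15, 1.30 and 1.13 on CD133 high replicates 1, 2 and 3, whereas Muc1 sits at −0.20, 1.69 and 1.32.

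Over the 6 arrays the members fell into more than 1 pattern. Tff1 ran with Muc1 (Pearson r = 0.95) and with Anxa10 (r = 0.93), and Anxa10 also with Cdh17 (r = 0.93). Cdh17 and Muc1 were less alike (r = 0.63). Lgals4 ran against Muc1 (r = −0.84). These values describe 6 arrays in 2 fractions, with the division among the CD133 high arrays in each of them, and are given as descriptions.

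The fractions hold host cells as well as tumour cells, and in bulk RNA fewer cells of a type and less RNA per cell cannot be told apart. Epithelial markers were divided: 7 of 15 were higher in CD133 high cells, the median difference was −0.13, and their summed linear level was 22824 to 25849 on the CD133 low and 20675 to 28079 on the CD133 high arrays. Among them Cdh1, the cadherin of all epithelia, differed by 0.06 and Epcam by 0.18. The CD133 high arrays lay wholly above for 2, Krt8 (0.41) and Prom1 (0.79), beside 10.8% of all genes. They lay wholly below for 3, Cldn4 (−0.42), Cldn7 (−0.73) and St14 (−1.35), beside 12.8% of all genes. The difference of St14 was −0.73 without CD133 high replicate 1. Prom1 and St14, with means of 6.22 and 6.45, lay below the receptor level on average. Of these 15 markers Esrp1 alone was listed at 0, on 5 arrays. Leukocyte markers had a median of −0.70 over 16 genes, with 4 higher, and a summed level of 58760 to 62923 against 36153 to 66530. Within that list 5 lymphocyte genes fell in limma, where 0.253% of all genes passed, and they were low on all 3 CD133 high arrays, replicate 1 included. The B-cell genes Cd79b, Cd79a and Ms4a1 fell by 4.10, 3.06 and 2.81 (adjusted p = 0.0114, 0.0168 and 0.0311 from limma). Cd3g and Cd3e, CD3 chains of the T-cell receptor complex, fell by 2.81 and 2.34 (adjusted p = 0.0408 and 0.023 from limma). Cd79b, for example, read 9.45, 10.26 and 9.54 against 5.44, 5.73 and 5.79. Cd8a, another T-cell marker of that list, was higher by 0.31, with overlapping fractions. Leaving out any array but CD133 high replicate 1 left at most 1 probe set of the whole array past the threshold in limma. Fibroblast and endothelial markers had a median of 0.17 over 12 genes, 9 of them higher, with summed levels of 54440 to 59116 and 55665 to 74546. No marker of the leukocyte list or of the fibroblast and endothelial list was at 0. Alveolar and club cell markers had a median of −0.35, with 3 of 11 higher. The part of cell makeup in the members' differences was not tested.

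Among 105 other genes of stomach, intestine and their transcription factors, chosen by name, 0 passed limma's adjusted threshold, where 0.253% of all genes did, and 18 had an unadjusted p under 0.05, where 18.2% of all genes did. Their median difference was 0.14, and 62 differences were positive. The CD133 high arrays all lay above the CD133 low arrays for 15 of them and below for 4, beside 10.8% and 12.8% of all genes. Without CD133 high replicate 1, 15 of the 105 were called higher and 3 lower by limma, beside 11.7% and 14.6% of all genes. Of the 105, 30 had a mean above the receptor level. The lung factor Nkx2-1 is among the 105, so not all of them are gut and gastric genes.

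Of the transcription factors of endoderm, 0 of 23 passed by limma, where 0.253% of all genes did. The unadjusted p from limma was under 0.05 for 6, beside 18.2% of all genes. The median difference of the 23 was 0.36. The CD133 high arrays lay wholly above for 6 of them and wholly below for 1, Foxa3, beside 10.8% and 12.8% of all genes. Without CD133 high replicate 1, limma called 7 higher and 0 lower, Hnf4a and Foxa1 among them, beside 11.7% and 14.6% of all genes. Hnf4a, a nuclear receptor of liver, stomach and intestine, stood at 9.81, 9.81 and 9.65 against 10.33, 10.60 and 10.55. Its fractions did not overlap at 3 of its 4 probe sets, and the brightest differed by 0.74 (SE 0.14, adjusted p = 0.168 from limma). Foxa1, a forkhead factor that opens chromatin in endoderm, differed by 1.14 (SE 0.23, adjusted p = 0.178 from limma), from 8.51, 8.18 and 8.60 to 9.15, 9.85 and 9.73. Onecut2 differed by 0.86 (SE 0.26), and the Krüppel-like factors Klf4 and Klf5 by −0.32 (SE 0.26) and 0.20 (SE 0.14). Cdx1, the relative of Cdx2 and chosen after its values were seen, was listed at 0 on all 6 arrays. Nkx2-1, chosen after its values were seen, read 6.91, 6.41 and 6.83 against 6.81, 7.68 and 7.12, overlapping and within the receptors' range on all arrays but CD133 high replicate 2.

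Of 25 stomach lining genes, with a median difference of 0.11, 0 passed by limma, where 0.253% of all genes did. The unadjusted p from limma was under 0.05 for 5, beside 18.2% of all genes. Ctse, the gastric protease cathepsin E, differed by −0.27 (SE 0.16). Tspan8, a tetraspanin of gut epithelium, differed by 0.53 (SE 0.14), Aldh1a1, a retinaldehyde dehydrogenase, by 0.81 (SE 0.23), and Capn9, a digestive tract calpain, by 0.86 (SE 0.25), each with all CD133 high arrays above. Capn9, with a mean of 6.81, lay below the receptor level on average. Tspan8 differed by 0.28 to 1.71 over its 5 probe sets. Foxq1 differed by −0.16 at its brightest probe set and by 0.89 at the other. Muc5ac, the mucin of the gastric surface and chosen after its values were seen, was listed at 0 on all 6 arrays.

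Of 34 enterocyte and brush border genes, with a median difference of 0.04, 0 passed by limma, where 0.253% of all genes did. The unadjusted p from limma was under 0.05 for 4, beside 18.2% of all genes. Cdhr2, a protocadherin that links microvilli, differed by 0.58 (SE 0.16) with no overlap. Krt20, the keratin of mature gut epithelium, differed from the CD133 low mean by 0.72 on CD133 high replicate 1 and by −0.55 and −0.67 on replicates 2 and 3, so that the CD133 high arrays held both the highest and the lowest values, as for Lgals4. The peptidases Anpep and Enpep differed by −0.36 and 0.22 (SE 0.31 and 0.17). The difference of Anpep rested on CD133 high replicate 2, at 8.33 against 9.47 and 9.35 on replicates 1 and 3. The iron oxidase Heph and the chloride exchanger Slc26a3, below the receptor level on average, differed by 1.15 and 1.05 (SE 0.40 and 0.50), and the probe sets of Slc26a3 disagreed in direction.

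Of 23 goblet and other secretory genes, with a median difference of 0.10, 0 passed by limma, where 0.253% of all genes did. The unadjusted p from limma was under 0.05 for 3, beside 18.2% of all genes. Muc13, a transmembrane mucin, differed by −0.65 (SE 0.33) and Creb3l1, a membrane-bound transcription factor, by 0.47 (SE 0.47). Creb3l1 divided the CD133 high arrays as Muc1 did, at 9.75 on replicate 1 and 11.23 and 11.65 on replicates 2 and 3, with 10.24, 10.70 and 10.30 on the CD133 low arrays. Dclk1, a kinase of tuft cells, and Tph1, the serotonin-making hydroxylase, differed by 0.23 (SE 0.23) and 0.69 (SE 0.28). The probe sets of Dclk1 disagreed in direction, and the mean of Tph1, 7.16, lay below the receptor level. Lyz1, the lysozyme of Paneth cells, differed by 0.02 at probes whose suffix marks sequence shared with other transcripts. Its probe set without that suffix had a mean of 5.42, below the receptor level, and differed by −0.52 (SE 0.40).

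**Figure D3:**
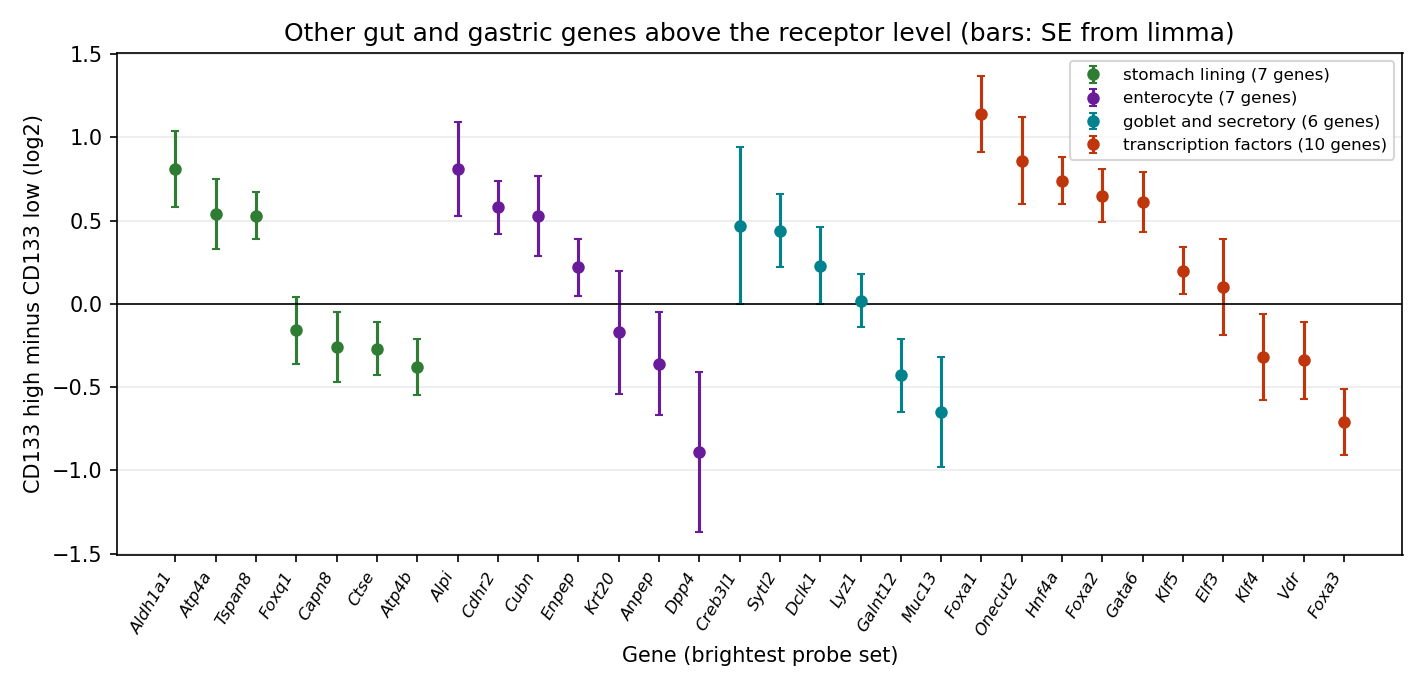
Differences in log2 units (CD133 high minus CD133 low, bars are SE from limma) for the 30 genes of the stomach, enterocyte, secretory and transcription factor lists whose mean lay above the receptor level. The highest value is that of Foxa1, 1.14, and the lowest that of Dpp4, −0.89; none passed the adjusted threshold.

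Close relatives of the members by family, 28 genes, had a median difference of −0.02. In limma 0 were past the threshold, where 0.253% of all genes were. The unadjusted p from limma was under 0.05 for 2, beside 18.2% of all genes. Cdh2, the neural cadherin, differed by 0.86 (SE 0.26), with both of its probe sets higher on all CD133 high arrays. The galectins Lgals1 and Lgals3 differed by −0.05 (SE 0.17) and −0.49 (SE 0.31), and the villin relative Capg, which caps actin, by −0.71 (SE 0.31). Anxa1 and Anxa2, bright annexins made by many cell types, differed by −0.01 (SE 0.19) and −0.26 (SE 0.23), beside 0.59 for Anxa10. The gap between Anxa10 and these relatives was not tested.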

How the data were processed

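The values are log2 probe set values in the deposited series table, with the scale judged from the values. Per the labels' protocols, total RNA was labelled as biotinylated cRNA for Affymetrix arrays. The labels name a smaller array than the one whose 45101 probe sets the table holds. The authors' probe summary and normalization are not given in the sources used here. Exact zeros make up 1158 to 1297 values of an array. The 64 control probe sets were left out of the tests. Gene names came from the platform annotation (34945 probe sets with 1 gene, 932 with several, 9160 unnamed here). Entrez identifiers of 34741 matched a RefSeq table. Each gene stood at its brightest probe set.

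The comparison used limma 3.58.1 under R 4.3.3 (lmFit and eBayes with a variance trend, two-sided, Benjamini-Hochberg over 45037 probe sets, threshold 0.05), tested on simulated data first. With 3 arrays a side the smallest two-sided exact permutation p is 0.1, so no such test was used. Replicates were numbered in accession order and pair no samples. No pair of arrays shared over 702 identical values. The number of arrays limits the precision. Members, lists and tests were chosen with earlier results of these data known. Named genes are all members, and from each list of other gut and gastric genes and of family relatives those past the threshold, the 4 brightest and the 2 of largest difference above the array median. Other genes, cell type markers included, were named after their values were seen. Members compared for likeness were the 3 of largest range. The alternatives were other scalings, filters, a floor of 5, variance models, array weights, probe set choices and each array left out.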

Additional observations from a re-analysis of the deposited data

How the results depend on the processing

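The whole-array counts of 7 higher and 75 lower probe sets depended on the arrays and the variance model. Leaving out 1 array gave 0 to 4277 higher and 0 to 5326 lower, the upper ends without CD133 high replicate 1. For the members these counts were 0 to 5, and for the 105 other gut and gastric genes 0 to 18. Array quality weights gave 2133 higher and 2675 lower of 45037 probe sets. With these weights 3 of the 13 member probe sets and 12 of the 105 other genes were called. With 13 and 172 calls under a robust trend, 1 and 6 without a trend, 12 and 152 with equal medians, 13 and 144 with equal 75th percentiles, 11 and 164 without the dimmest 50%, and 13 higher with gene means, no member was called. The floor of 5 gave 31 lower and leaving out the dimmest 25% gave 180 lower. Some of these settings hold fewer probe sets or arrays. The cause of the differing counts was not tested. Of 165 differences of members under alternatives, 164 kept their sign, the exception being Cdx2. The variance models, the brightness filters and leaving out probe sets with a shared-sequence suffix could not change these differences. Part of that agreement was thus fixed beforehand.

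Differences near 0 of list genes changed sign: Foxq1 (0.37), Lyz1 (−0.15), Anxa1 (0.07) and Anxa2 (0.01) with gene means; Lgals1 (0.02) and Anxa1 (0.10) with quantile normalization; and Lyz1 (−0.03) with equal medians. Leaving out 1 array did so for Krt20 (range −0.61 to 0.09), Lyz1 (−0.02 to 0.06), Lgals1 (−0.12 to 0.03) and Anxa1 (−0.17 to 0.10). Of 27 named list genes, picked in part for large differences, 14 passed limma's threshold without CD133 high replicate 1. There 11.7% and 14.6% of all genes were called higher and lower. With array weights 8 passed, beside 2133 higher and 2675 lower of 45037 probe sets. No paired analysis was possible because the labels give no replicate numbers.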

Other observations

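Genes most like the members over the 6 arrays were sought among 11440 genes above the array median, with Pearson r as a description. By the rule of largest range these members were Tff2, Cdx2 and Gkn1, all dim. The likest genes were Nxpe3 for Tff2 (r = 0.987), Ccl6 for Cdx2 (r = 0.984) and C030013C21Rik for Gkn1 (r = 0.998). With so few arrays many genes come close: 137 genes had r over 0.95 with Gkn1.

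The brighter members were added after their values were seen. Genes with r over 0.95 numbered 677 for Muc1, 452 for Tff1, 269 for Lgals4, 43 for Cdh17 and 32 for Anxa10. The likest genes named here are thus a few of many. Cdh17 was most like Wdr59 (r = 0.990), Cdc42bpg (r = 0.989) and Cacna2d1 (r = 0.987). Tff1 was most like Socs5 and Misp (r = 0.998 each) and Igsf5 (r = 0.994). Misp encodes an actin-bundling protein and Igsf5 a junctional protein of epithelia, and their differences were 0.76 and 0.57. Muc1 was most like Ptcd2 and Cox15 (r = 0.999 each), which act in mitochondria, and Mrtfb (r = 0.998). Lgals4 was most like B9d2 (r = 0.997) and Ccl17, a chemokine of dendritic cells (r = 0.995), whose difference was −1.06. Fabp5 came next (r = 0.994). Anxa10 was most like Shfl (r = 0.990), Snhg4 (r = 0.988) and the integrin chain Itga3 (r = 0.982, difference 0.82).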
